A study of Rattus norvegicus with 48 samples.

Results

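Transcripts of the glutathione S-transferase family were followed in 48 RNA-seq libraries of rat mixed cortical cultures, 3 libraries in each of 16 groups. The family was set as 10 gene symbols, and 9 of them (Gstp1, Gsta1, Gsta4, Gstm1, Gstm5, Gstt1, Gsto1, Mgst1 and Mgst3) were found among the 30211 genes of the deposited table. The expression of Gstm2 was not analysed here. All 9 lay above the filter on low values, which 15890 genes passed (at least 0.5 CPM, reads scaled to the size of the library, in at least 3 of the 48 libraries). The cultures were taken from Sprague-Dawley fetuses at day 18 of gestation and were kept for 3 weeks before treatment. Control cultures carry no agent in their labels, and the sources used here do not state whether they received the solvent of the compounds. The other groups received cocaine (25 µM, 24 h), the HIV-1 transactivator protein Tat (6 ng/mL, 48 h) or both (Tat-Cocaine). A further 3 groups received 4OI (4-octyl itaconate, 250 µM, a membrane-permeable ester of itaconate) alone, with Tat (Tat-4OI) or with Tat and cocaine (Tat-Cocaine-4OI). Amlexanox (25 µM), an inhibitor of the kinases TBK1 and IKKε, Tazemetostat (3 µM), an inhibitor of the histone methyltransferase EZH2, and Senicapoc (1 µM), a blocker of the potassium channel KCa3.1, were each given in the same 3 settings. Compounds were added together with Tat or its control for 48 h. The study describes cocaine as given after the 48 h with Tat, for an additional 24 h. Whether cultures without cocaine were kept for that time too is not stated there, so time in culture may differ between groups. The labels do not say whether the libraries of a group came from separate preparations of cells, so the tests measure the spread between these libraries.

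Glutathione S-transferases join the thiol of glutathione to electrophilic compounds, which detoxifies products of lipid peroxidation and many drugs. The cytosolic enzymes form classes named by Greek letters, here pi (Gstp1), alpha (Gsta1, Gsta4), mu (Gstm1, Gstm5), theta (Gstt1) and omega (Gsto1), whereas Mgst1 and Mgst3 belong to an unrelated family of membrane proteins. Several of the genes are textbook targets of Nrf2, a transcription factor that is released from its inhibitor Keap1 by electrophiles and binds antioxidant response elements. In brain the mu class enzymes are mostly found in astrocytes, and the pi class enzyme is known from oligodendrocytes and astrocytes.

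Depth lay between 17.5 and 29.1 M reads per library (M, mega), so that 0.5 CPM stood for 8.58 to 14.96 reads and the weakest member, Gstt1, for 94 to 243 reads in a library. The labels call the cells neurons, but markers of other cells were present throughout. The astrocyte marker Gfap lay between 2231 and 7582 CPM and the neuronal Snap25 between 83.9 and 574 CPM, whereas the endothelial Cldn5 was at 0 in 25 libraries and at most 0.1003 CPM. In a library of bulk RNA, fewer cells of a type and less RNA per cell cannot be told apart. Cocaine replicate 3 stood apart, with a summed level of 10 oligodendrocyte markers of 27714 CPM against at most 2552 CPM in the other libraries. Amlexanox replicate 3 had the lowest sums of astrocyte (5863 CPM), endothelial (37.7 CPM) and ependymal markers (26.3 CPM) and the highest of neuronal ones (5347 CPM). Differences between groups that rest on these libraries are given with and without them. Correlations over group means, and counts of shared highest and lowest libraries, are given only with them.

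**Figure D1:**
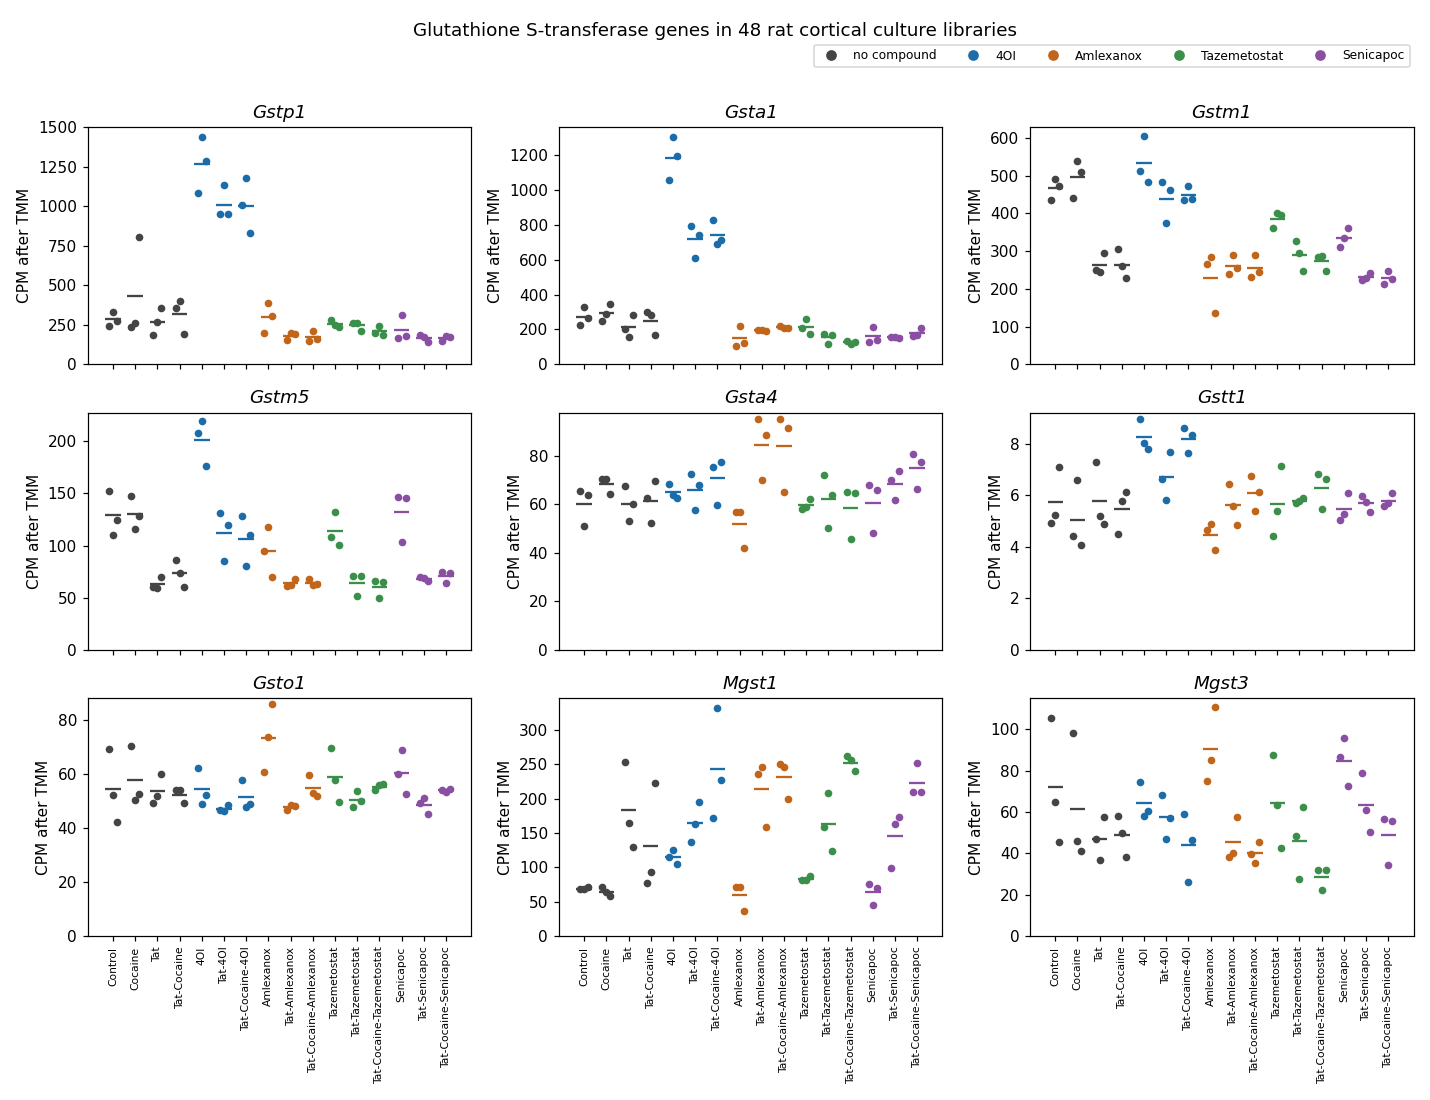
Levels of the 9 genes in all 48 libraries, in CPM after TMM scaling (linear axes that start at 0). Points are libraries, bars are means of 3, and colours mark the compound. In the panels of Gstp1 and Gsta1 the 9 libraries with 4OI lie above all libraries without it, with 802.9 CPM in Cocaine replicate 3 next below them for Gstp1.

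Gstp1, the pi class enzyme, rose with 4OI in each of the 3 settings. Its level in the 9 libraries with 4OI was 828 to 1436 CPM, and in the 39 libraries without it 142 to 803 CPM. Control cultures had 245.5, 330.0 and 277.3 CPM, and 4OI cultures 1082, 1436 and 1285 CPM. The 4OI libraries thus all lay above the Control libraries, by 4.46-fold (log2 difference 2.16, SE 0.30, limma FDR 9.63e-06). Tat cultures had 188.4, 268.3 and 353.7 CPM, and Tat-4OI cultures 948.8, 1131 and 949.2 CPM. That difference was 3.84-fold (log2 1.94, FDR 3.35e-05), again without overlap. Tat-Cocaine cultures, in which replicate 3 was low, had 359.2, 402.0 and 194.3 CPM, and Tat-Cocaine-4OI cultures 1006, 1178 and 828 CPM (log2 1.71, FDR 0.000285). This call was lost in a fit of the libraries of these 2 groups alone (FDR 0.0717). Without 4OI, neither Tat (log2 difference to Control -0.11, FDR 0.822) nor Tat-Cocaine (0.11) passed the test. Cocaine cultures had 235.1, 262.1 and 802.9 CPM. The high value was that of replicate 3, the library with the high oligodendrocyte sum. The difference of Cocaine to Control was 0.38 with it and -0.18 without it on the log2 scale. Over the 16 groups, Gstp1 shared its highest library with the oligodendrocyte sum in 5 and its lowest in 5. With the microglial sum these counts were 10 and 9. The part of either kind of cell in the level of Gstp1 was not tested.

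Gsta1, an alpha class enzyme, was the other gene with a rise of this size. In the libraries with 4OI its level was 611 to 1300 CPM, and without 4OI 107 to 348 CPM. Control cultures had 225.3, 330.8 and 263.9 CPM against 1057, 1300 and 1191 CPM with 4OI, which was 4.36-fold (log2 2.12, SE 0.22, FDR 2.39e-08). With Tat the values were 200.9, 158.6 and 281.7 CPM, and with Tat and 4OI 793.1, 610.6 and 743.1 CPM (3.42-fold, FDR 8.89e-07). Tat-Cocaine cultures had 299.7, 281.7 and 170.7 CPM, and Tat-Cocaine-4OI cultures 825.5, 691.2 and 713.4 CPM (3.04-fold, FDR 6.45e-06). The groups did not overlap in any of these settings. The rise of Gsta1 was 0.35 smaller with Tat than without it and 0.52 smaller with Tat and cocaine on the log2 scale, and the corresponding figures of Gstp1 were 0.21 and 0.45. None of these differences between settings passed the test (FDR 0.659 to 0.869), nor did those of the other members (0.497% of all genes passed with Tat and 0.113% with Tat and cocaine). With 4OI present, the groups that also received Tat still exceeded Control cultures, by 1.83 for Gstp1 and 1.40 for Gsta1 in Tat-4OI, and by 1.81 and 1.46 in Tat-Cocaine-4OI (log2; FDR at most 8.65e-05). These comparisons with Control, and those of the same kind below, were chosen after the values had been seen. In Tat-4OI against Control 3 of 9 members were higher (9.11% of all genes changed, 5.85% upward) and, with cocaine added, 4 of 9 (14.3%, 9.25% upward), which were Mgst1 besides, and Gstt1 in the latter. Sums of cell markers overlapped between Control and 4OI cultures for every list, with 294 to 1624 and 558 to 2113 CPM for oligodendrocytes and 1458 to 2690 and 873 to 2129 CPM for microglia. Between Tat and Tat-4OI cultures several sums did not overlap. Microglial markers were at 1995 to 3617 and 787 to 1879 CPM, fibroblast and leptomeningeal ones at 1040 to 1721 and 507 to 824 CPM, neuronal ones at 1790 to 3258 and 3669 to 4492 CPM, and endothelial and mural ones at 92.49 to 124.3 and 69.9 to 92.40 CPM. Between Tat-Cocaine and Tat-Cocaine-4OI cultures the astrocyte sums did not overlap (7119 to 9029 and 9098 to 13849 CPM). The part of these shifts in the rises of Gstp1 and Gsta1 was not tested. In this genome reference the symbol Gsta1 has Gsta3 and Gsta5 as older names, while Gsta2 carries Gsta1 as an older name. Which alpha class gene the deposited row stands for is therefore uncertain, and of its 48 values 70.8% were whole numbers of reads.

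Start regions are shown for Gstp1, Gsta1 and Gstm5, which passed the test upward with 4OI alone. The call of Gstm5 was lost in most omissions of a library, as given below. Gstm1 is shown beside them. It did not pass with 4OI alone, but rose with 4OI in the settings with Tat and with Tat and cocaine. The sequences are RefSeq's for build GRCr8, matched by symbol, and 9 of the 10 genes had one, Gstm2 among them and Gstt1 not. The core of the antioxidant response element was searched as TGACNNNGC and the AP-1 site as TGANTCA, on both strands of the 250 bases before and the 50 bases after the start. The letters of the former were in 3 of the 9 member windows and in 12.1% of 33469 windows of the table, and those of the latter in 4 of 9 and in 7.33%. Both motifs can share bases. Capitals mark matches of either motif.
Gstp1, bases -250 to -1, chr1:210769706-210769955, minus strand: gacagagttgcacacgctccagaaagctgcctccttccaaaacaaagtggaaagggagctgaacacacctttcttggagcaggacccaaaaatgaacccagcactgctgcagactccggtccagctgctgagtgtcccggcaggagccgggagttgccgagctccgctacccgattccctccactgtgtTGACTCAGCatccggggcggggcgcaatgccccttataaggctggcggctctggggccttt
Gsta1, bases 21 to 50, chr9:31216483-31216512, minus strand: aactcaggcaTGACTTTGCatttttcttct
Gstm5, bases -250 to -1, chr2:198219519-198219768, plus strand: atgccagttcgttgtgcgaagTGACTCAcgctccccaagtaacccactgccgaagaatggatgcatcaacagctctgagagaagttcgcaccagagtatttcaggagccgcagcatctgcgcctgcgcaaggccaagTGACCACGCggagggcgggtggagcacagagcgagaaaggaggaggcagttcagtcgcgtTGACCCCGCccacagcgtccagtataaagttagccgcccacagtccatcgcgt
Gstm1, bases -250 to -1, chr2:198343384-198343633, minus strand: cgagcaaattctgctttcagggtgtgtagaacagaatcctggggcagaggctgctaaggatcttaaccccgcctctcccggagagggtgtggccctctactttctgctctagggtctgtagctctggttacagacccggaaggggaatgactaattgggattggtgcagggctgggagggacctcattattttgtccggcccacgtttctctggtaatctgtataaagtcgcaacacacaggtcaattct
In Gstp1 a single stretch that begins at -61 from the start matched both motifs. Gsta1 had its match at 31, within the transcript, and no match in the bases before the start. Gstm5 held 2 matches of the antioxidant response element core, at -113 and -53, and an AP-1 match at -229. Gstm1 had neither motif in its window. On the strand of the gene, the only one searched for it in the members, both mu class genes had a TATAAA box, at -29 in Gstm1 and -31 in Gstm5. Of all windows 14.2% held these letters on either strand, which is a wider search. The windows of Gstm1 and Gstp1 lie inside the genes as the reference places them (chr2:198338005-198346007 and chr1:210767237-210770242). Start sites nearer the outer ends of these 2 genes were not searched. Outside the genes with sequences shown, AP-1 letters were found at 25 in Gsto1 and at -140 in Mgst1. A match of letters is a description of the sequence and was not tested as a binding site.

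**Figure D2:**
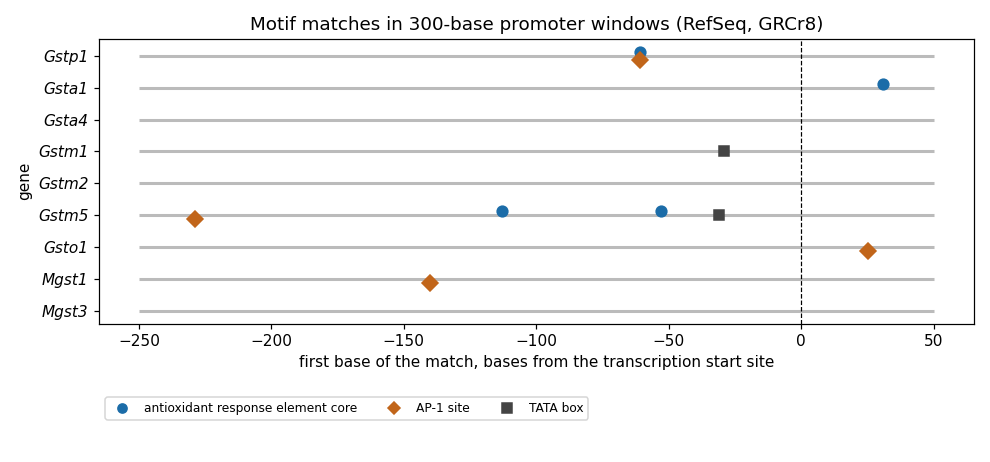
Positions of motif matches in the start regions of the 9 family genes with a sequence (Gstm2 among them, Gstt1 not). The x axis gives the first base of each match in bases from the transcription start (dashed line), and symbols stand for the motif. The antioxidant response element core occurs in Gstp1, Gsta1 and Gstm5.

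Both mu class genes fell with Tat and were higher with Tat and 4OI than with Tat alone. Gstm1, which conjugates a wide range of electrophiles, had 435.3, 490.5 and 474.0 CPM in Control and 249.2, 246.0 and 296.2 CPM in Tat cultures. The Tat libraries all lay below, at 0.564 of the Control level (log2 -0.82, SE 0.16, FDR 0.000272). Tat-Cocaine cultures had 305.4, 260.8 and 228.1 CPM (log2 -0.82, FDR 0.000451). With 4OI the values were 482.9, 373.8 and 462.1 CPM in Tat-4OI and 436.1, 473.9 and 437.8 CPM in Tat-Cocaine-4OI cultures. These exceeded the groups without 4OI by 1.66-fold (log2 0.73, FDR 0.0018) and 1.71-fold (log2 0.77, FDR 0.00194), without overlap, the latter not past the test with the libraries of its 2 groups alone (FDR 0.0605). Against Control they differed by -0.09 (95% interval -0.42 to 0.23) and -0.05 (-0.38 to 0.27) on the log2 scale and did not pass the test. In cultures without Tat, 4OI gave 512.5, 606.1 and 483.0 CPM, of which 483.0 lay within the range of Control (log2 0.19, FDR 0.729). The effect of 4OI on Gstm1 was larger by 0.54 with Tat and by 0.58 with Tat and cocaine than alone, which passed at the unadjusted level (limma p 0.0224 and 0.0149) and failed after adjustment over all genes (FDR 0.353 and 0.413). Of the Gstm1 values 27.1% were whole numbers of reads, the lowest share of the members, with 58.3% for Gsto1. The reason was not tested. Gstm1 lies between its close relatives Gstm2 and Gstm4 in the reference. Whether reads were divided between genes is not given in the sources used here.

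Gstm5, a mu class enzyme found mainly in brain and testis, had 152.5, 110.2 and 124.9 CPM in Control and 60.3, 59.6 and 70.0 CPM in Tat cultures. All Tat libraries were lower (0.495 of Control, log2 -1.01, FDR 8.55e-05). Tat-Cocaine cultures had 86.2, 74.0 and 60.2 CPM (log2 -0.81, FDR 0.0018), a call lost with these 2 groups alone (FDR 0.0509). Addition of 4OI to Tat gave 131.6, 85.2 and 119.8 CPM, above the Tat libraries by 1.74-fold (log2 0.80, FDR 0.00234). With Tat and cocaine it gave 128.8, 80.5 and 110.7 CPM, of which 80.5 lay within the Tat-Cocaine range, and the difference did not pass the test (log2 0.52, FDR 0.0717). Leaving out that library, replicate 2, gave 0.71 (FDR 0.0174). 4OI alone gave 207.7, 218.9 and 176.0 CPM, all above Control, as in 10.9% of all genes. That rise was 1.56-fold (log2 0.64, FDR 0.0402), and it no longer passed when any library other than Control replicate 1 was left out (0.53 to 0.73, FDR 0.0615 to 0.25), nor with the libraries of these 2 groups alone (FDR 0.137). Unlike the values of Gstm1, all Gstm5 values were whole numbers of reads.

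Between the groups below, astrocyte markers shifted in the same direction as the mu class genes, with overlap between Tat and Tat-4OI cultures. The summed level of the 10 markers was 10607 to 12661 CPM in Control, 7157 to 9521 CPM in Tat and 7119 to 9029 CPM where Tat and cocaine were given. In the groups with 4OI it was 9209 to 10984 CPM in Tat-4OI and 9098 to 13849 CPM in Tat-Cocaine-4OI cultures. Not all other groups shifted this way. In Tat-Cocaine-Amlexanox cultures the sum was 9559 to 10361 CPM, above all Tat-Cocaine libraries. The log2 differences there were -0.05 for Gstm1 and -0.17 for Gstm5, neither past the test. Within groups, the lowest astrocyte sum and the lowest Gstm1 fell in the same library in 5 of 16 groups. For Gstm5 this was so in 8. The highest libraries agreed in 3 groups for Gstm1 and in 2 for Gstm5. With 3 libraries in a group, such agreement is frequent without any relation. The microglial sum shared its highest library with Gstm1 in 11 groups and its lowest in 7. Gstm5 was lowest in the library with the lowest oligodendrocyte sum in 14 of 16 groups, and highest with the highest in 10. The part of cell composition in these differences was not tested.

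**Figure D3:**
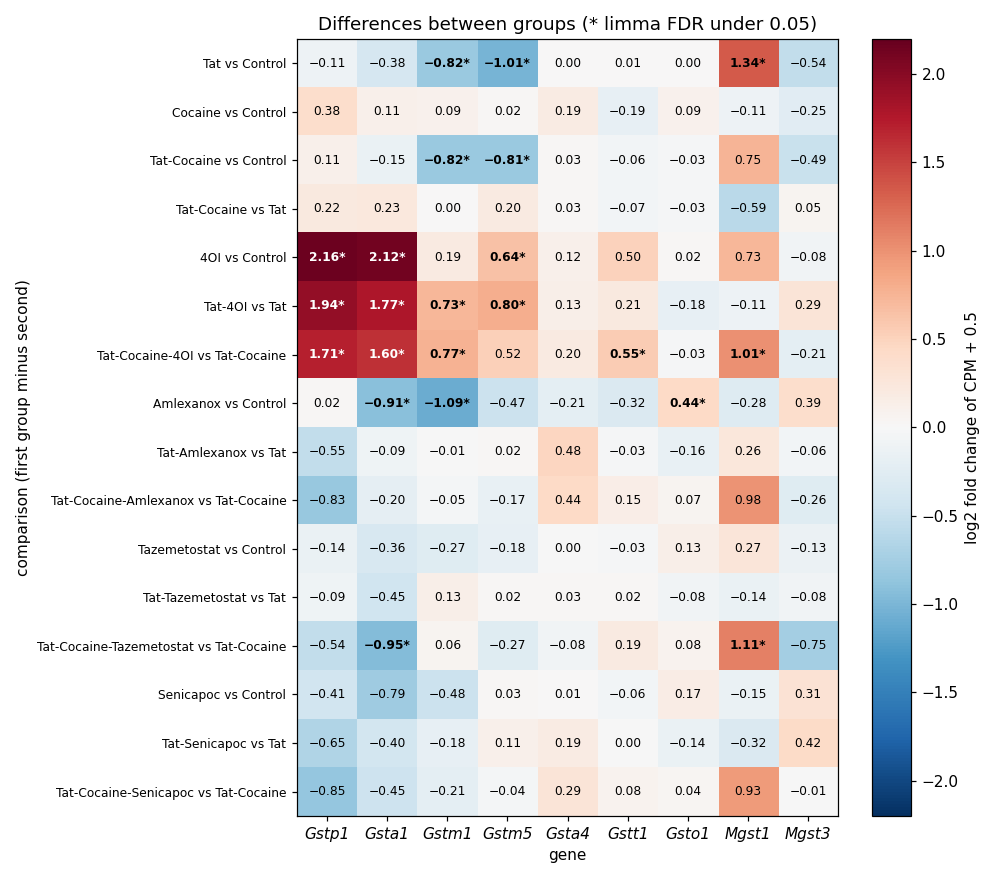
Log2 differences of the 9 genes in 16 comparisons of 2 groups, on the log2(CPM + 0.5) scale, red for higher and blue for lower in the group named first. Stars mark limma FDR under 0.05. Of 9 genes, 3, 4 and 5 are starred in the 4OI rows (3.15%, 15.6% and 7.36% of all genes passed). In Tat against Control and in Amlexanox against Control 3 are starred (21.3% and 11.4%), and 0 with Cocaine alone (0.201%).

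Counted over the family, 3 of 9 genes passed the test in Tat against Control, Mgst1 upward and Gstm1 and Gstm5 downward, where 21.3% of all genes tested passed. In Tat-Cocaine against Control 2 of 9 passed (14.9% of all genes, 6.3% downward), both downward. Cocaine alone changed 0 of 9 by limma (0.201% of all genes), also at an unadjusted p under 0.05, and Tat-Cocaine against Tat gave 0 of 9 in the same way (0.0189%). At that unadjusted level were 1996 and 1297 of the 15890 genes tested. For 4OI against Control 3 of 9 rose where 3.15% of all genes changed (2.47% upward), with a median log2 difference of 0.50 over the members and 0.00 over all genes. In Tat-4OI against Tat 4 of 9 rose (15.6% of all genes changed, 6.1% upward), with a median of 0.29 over the members. In Tat-Cocaine-4OI against Tat-Cocaine 5 of 9 rose (7.36%, 4.07% upward), with medians of 0.55 and -0.01. The upward share of the calls over all genes in Tat-4OI against Tat was 39.2%, and 49.98% after quantile normalization. In none of the 3 settings did a family member pass the test downward with 4OI. The comparisons of Tat with Control and of Tat-4OI with Tat share the Tat libraries, so the opposite signs of Gstm1 and Gstm5 rest in part on the same values.

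Gstt1, the theta class enzyme, was low at 3.86 to 8.95 CPM. It had 4.91, 5.25 and 7.08 CPM in Control and 8.95, 8.02 and 7.80 CPM in 4OI cultures. The latter were all higher, as in 10.9% of all genes. The difference did not pass the test (log2 0.50, FDR 0.0887), other than without Control replicate 3 (0.65, FDR 0.0351) and with quantile normalization (0.56, FDR 0.0419). Tat-Cocaine cultures had 4.51, 5.77 and 6.12 CPM and Tat-Cocaine-4OI cultures 8.61, 7.64 and 8.33 CPM, which was a rise by 1.47-fold (FDR 0.0304). Omission of Tat-Cocaine replicate 1 (log2 0.43, FDR 0.186), replicate 2 (0.59) or Tat-Cocaine-4OI replicate 1 (0.52) or 3 (0.54) ended that call. The difference of Tat-Cocaine-4OI to Control was 0.49 (FDR 0.0354), and it passed in 1 of 6 omissions, that of Control replicate 3 (0.40 to 0.54 in the others, FDR at most 0.185). Tat-4OI cultures had 6.64, 5.81 and 7.69 CPM and overlapped with the Tat libraries at 7.30, 5.20 and 4.87 CPM (log2 0.21).

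The remaining cytosolic members did not pass the test with 4OI in any setting. Gsta4, which conjugates 4-hydroxynonenal, a product of lipid peroxidation, differed by 0.12, 0.13 and 0.20 in the 3 settings on the log2 scale, and the 95% interval with 4OI alone was -0.21 to 0.44. Gsto1, whose omega class enzyme has glutathione-dependent reductase activity, differed by 0.02, -0.18 and -0.03 (interval with 4OI alone -0.26 to 0.30). Its Tat-4OI libraries (46.7, 46.3 and 48.4 CPM) all lay below the Tat libraries (49.2, 51.8 and 60.2 CPM), as in 17.2% of all genes. Gsta4 was between 42.2 and 95.03 CPM in all libraries and Gsto1 between 42.2 and 86.0 CPM. Replicate numbers moved with several members. Replicate 1 was the highest library of its group in 12 of 16 groups for Gsta4 and in 11 for Gstm5, and replicate 2 the lowest in 12 and 10. For Gstp1 and Gstm1 the order ran the other way, with replicate 2 highest in 11 and 10 groups and replicate 1 lowest in 10 and 9.

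Mgst1, the microsomal enzyme that also reduces lipid hydroperoxides, rose with Tat. Control cultures had 67.7, 67.9 and 71.3 CPM, close to each other, and Tat cultures 253.5, 164.7 and 129.9 CPM, all higher. The rise was 2.54-fold (log2 1.34, SE 0.29, FDR 0.000964). Tat-Cocaine cultures had 76.5, 92.6 and 222.5 CPM, all above Control as in 15.1% of all genes, but replicate 3 carried most of the difference. It did not pass the test (log2 0.75, FDR 0.0788), and was 0.29 without replicate 3 and 1.054 without replicate 1 (FDR 0.0201). With 4OI alone the values were 114.8, 124.9 and 105.4 CPM, all above Control, as in 10.9% of all genes. This difference did not pass (log2 0.73, FDR 0.226) other than with the libraries of these 2 groups alone (FDR 0.0213). Mgst1 values were 136.8, 162.3 and 195.4 CPM with Tat and 4OI (log2 -0.11 to Tat) and 172.1, 331.4 and 227.8 CPM with Tat, cocaine and 4OI. The difference of these to Tat-Cocaine was 2.01-fold (log2 1.01, FDR 0.0292) although the groups overlapped. It no longer passed without Tat-Cocaine replicate 1 (log2 0.71), replicate 2 (0.85) or Tat-Cocaine-4OI replicate 2 (0.76) or 3 (1.03, FDR 0.075), nor with the libraries of these 2 groups alone (FDR 0.359). Against Control, Tat-4OI cultures were higher by 1.24 (FDR 0.00498) and Tat-Cocaine-4OI cultures by 1.76 (FDR 6.25e-05) on the log2 scale. Mgst1 was lowest in the library with the lowest sum of ependymal markers in 15 of 16 groups, and highest with the highest in 10. The leading counts for Mgst1, Gstm5 and Mgst3 were the highest over all pairs of a member and a marker list. With 3 libraries in a group and replicate numbers that moved together, the groups are not independent. The ependymal sum was 112 to 323 CPM in Control and 116 to 152 CPM in Tat cultures. It was 348 CPM in Tat-Cocaine-4OI replicate 2, the library with the highest Mgst1 of all. The sum of fibroblast and leptomeningeal markers was 550 to 1199 CPM in Control and 1040 to 1721 CPM in Tat cultures. The part of either kind of cell in the level of Mgst1 was not tested.

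Mgst3, the other membrane enzyme, had 105.3, 64.7 and 45.6 CPM in Control and 46.9, 36.7 and 57.5 CPM in Tat cultures (log2 -0.54, FDR 0.225). The coefficient of variation of its Control libraries (42.5%) was the highest of the 9 members, and the differences with 4OI were -0.08, 0.29 and -0.21 on the log2 scale, none past the test. Mgst3 was highest in the library with the highest sum of 12 neuronal markers in 15 of 16 groups and lowest with the lowest in 13. Both were lowest of all in Tat-Cocaine-Tazemetostat replicate 2 (22.2 CPM of Mgst3, 1236 CPM of markers) and highest in Amlexanox replicate 3 (110.5 and 5347 CPM). The part of neuronal content in the level of Mgst3 was not tested.

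**Figure D4:**
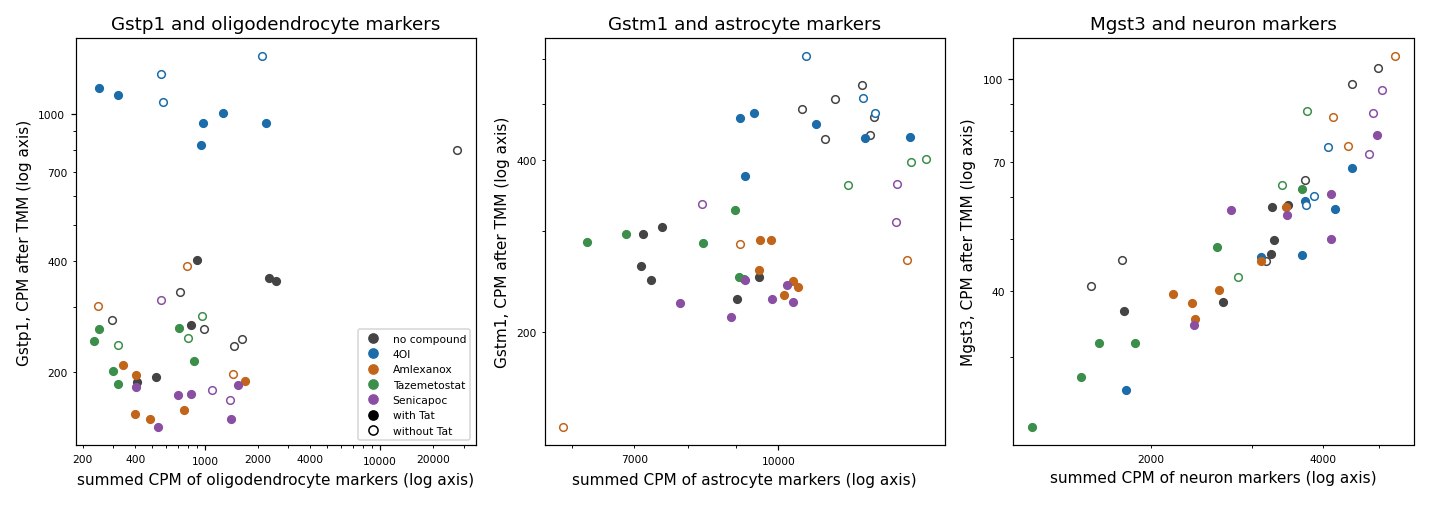
Level of Gstp1, Gstm1 and Mgst3 in each of the 48 libraries (y, CPM, log axis) against the summed CPM of oligodendrocyte, astrocyte and neuronal markers (x, log axes). Colours mark the compound and filled points cultures with Tat. Cocaine replicate 3 lies alone at 27714 CPM of oligodendrocyte markers, and Mgst3 climbs with the neuronal sum.

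With the other compounds neither Gstp1 nor Gsta1 passed the test upward. With Amlexanox alone Gsta1 fell to 106.8, 222.0 and 123.8 CPM, all below Control (log2 -0.91, FDR 0.00739), and Gstm1 to 267.2, 284.2 and 136.3 CPM (log2 -1.09, FDR 9.05e-05). Gsto1 was higher at 60.9, 73.8 and 86.0 CPM against 69.2, 52.3 and 42.2 CPM in Control, with overlap (log2 0.44, FDR 0.0319). These were 3 of 9 genes where 11.4% of all genes passed. Amlexanox replicate 3 held the lowest Gstm1 and the highest Gsto1 of all libraries. Without that library Gstm1 still passed (log2 -0.76, FDR 0.00203), whereas Gsta1 (-0.81, FDR 0.102) and Gsto1 (0.32, FDR 0.308) did not. Gsta1 was also lost without Control replicate 2 (-0.77, FDR 0.0521), and Gsto1 without Control replicate 2 (0.43) or 3 (0.27) or Amlexanox replicate 2 (0.43). With the libraries of Control and Amlexanox alone none of the 3 passed (FDR 0.228 to 0.331).

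With Tat or Tat-Cocaine, Amlexanox changed 0 of 9 members by limma (0.837% and 0.925% of all genes). At an unadjusted limma p under 0.05 there were 1 and 3 members, and 1988 and 2829 of the 15890 genes tested. Gsta4 had 95.03, 70.0 and 88.3 CPM in Tat-Amlexanox against 67.4, 53.0 and 60.2 CPM in Tat cultures, all higher, as in 8.35% of all genes. Its log2 difference was 0.48 (FDR 0.16), and in this pair of groups, where libraries of the same number deviated together, a fit with the replicate number as a block gave FDR 0.0124 (3.1% of all genes passed with the block). In Tat-Cocaine-Amlexanox against Tat-Cocaine Gstp1 differed by -0.83 (FDR 0.152) and Mgst1 by 0.98 (FDR 0.0858). Both passed without Tat-Cocaine replicate 3, at -1.16 (FDR 0.0256) and 1.45 (FDR 0.00366). The effect of Amlexanox with Tat differed from that without it in 1 of 9 members (Gstm1; 1.84% of all genes), and the effect with Tat and cocaine in 2 of 9 (Gstm1 and Mgst1; 9.32%), in comparisons added after the values had been seen.

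Tazemetostat changed 0 of 9 members alone and with Tat, where 0 of all genes passed in limma. No member had an unadjusted limma p under 0.05 either, against 576 and 851 of the 15890 genes tested. With Tat and cocaine 2 of 9 changed where 28.7% of all genes did. Gsta1 had 132.1, 116.1 and 129.7 CPM, below all Tat-Cocaine libraries (log2 -0.95, FDR 0.00679), and Mgst1 261.6, 256.1 and 239.7 CPM, above them (log2 1.11, FDR 0.0101). In this comparison 23% of all genes were lower and 24.8% higher without overlap. Gsta1 was lost without Tat-Cocaine replicate 1 (-0.80, FDR 0.0613) or Tat-Cocaine-Tazemetostat replicate 2 (-0.89). Mgst1 was lost without Tat-Cocaine replicate 1 (0.81) or 2 (0.95) or Tat-Cocaine-Tazemetostat replicate 2 (1.10, FDR 0.0649), and with the libraries of these 2 groups alone (FDR 0.0618). Ependymal sums were 309.9, 398.7 and 227.8 CPM in Tat-Cocaine-Tazemetostat against 64.0, 94.8 and 149.0 CPM in Tat-Cocaine cultures, without overlap. Microglial sums were also higher (3472 to 5466 against 1497 to 2499 CPM), and those of oligodendrocytes (232 to 320 against 527 to 2308 CPM), their precursors (335 to 547 against 628 to 804 CPM) and fibroblasts (844 to 882 against 995 to 1089 CPM) were lower, all without overlap. Their part in the differences of Gsta1 and Mgst1 was not tested. Mgst3, at 31.94, 22.2 and 31.95 CPM, lay below the Tat-Cocaine libraries at 58.1, 49.9 and 38.1 CPM, as in 23% of all genes. Its difference did not pass (log2 -0.75, FDR 0.0746). The sum of neuronal markers was 1236 to 1876 CPM in Tat-Cocaine-Tazemetostat against 2670 to 3470 CPM in Tat-Cocaine cultures. Without Tat-Cocaine replicate 3 Mgst3 passed at -0.92 (FDR 0.0453), as did Gstp1 at -0.86 (FDR 0.0352).

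Senicapoc changed 0 of 9 members in each setting by limma, with 0%, 0.409% and 0.0441% of all genes called alone, with Tat and with Tat-Cocaine. An unadjusted limma p under 0.05 was found for 2, 1 and 3 members, and for 1378, 2909 and 2466 of the 15890 genes tested. Senicapoc alone gave 126.4, 213.2 and 141.3 CPM of Gsta1, all below Control, as in 6.46% of all genes (log2 -0.79, FDR 0.406). Gstp1 in Tat-Cocaine-Senicapoc cultures, at 149.5, 181.8 and 174.7 CPM, lay below the Tat-Cocaine libraries, as in 8.2% of all genes (log2 -0.85, FDR 0.196). The differences between settings in the effect of Tazemetostat or Senicapoc, added after the values had been seen, passed for 0 of 9 members and 0% of all genes in limma. For each compound with Tat and cocaine 1 member, Mgst1, had an unadjusted limma p under 0.05. The number of all genes at that level was not counted for these differences. Without Tat-Cocaine replicate 3 the Gstp1 difference was -1.17 (FDR 0.0289), and that of Mgst1 was 1.40 (FDR 0.00739) against 0.93 with all libraries.

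The difference between 4OI and the mean of the other compounds was tested directly, at doses that differ as given above. Without Tat 6 of 9 members were higher with 4OI (6.92% of all genes differed, 5.42% upward), with Tat 4 of 9 (18.2%, 7.99% upward) and with Tat and cocaine 5 of 9 (19.9%, 7.77% upward). Gstp1 exceeded the other compounds by 2.34, 2.37 and 2.45 in the 3 settings and Gsta1 by 2.81, 2.09 and 2.14 on the log2 scale (FDR at most 1.44e-08). Gstm1 was higher by 0.80, 0.75 and 0.84, and Gstm5 by 0.85, 0.75 and 0.68. Without Tat, the Gstm1 difference to Control was 0.19 with 4OI, -1.09 with Amlexanox, -0.27 with Tazemetostat and -0.48 with Senicapoc. Of these only that with Amlexanox passed the test. Gstm1 and Gstm5 still exceeded the other compounds without Tat when Cocaine replicate 3 and Amlexanox replicate 3 were left out (0.69 and 0.78). Gstt1 passed without Tat (0.64) and with Tat and cocaine (0.41), the latter not without Tat-Cocaine-4OI replicate 1 or 3 (0.38 and 0.40). Mgst1 passed without Tat (0.79, FDR 0.0388), which was lost in 7 of 12 omissions of a library, those of Amlexanox replicate 3, Tazemetostat replicates 1 and 2, Senicapoc replicate 2 and each 4OI replicate (0.68 to 0.85, FDR at most 0.157). Gsta4, Gsto1 and Mgst3 did not pass in any setting.

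**Figure D5:**
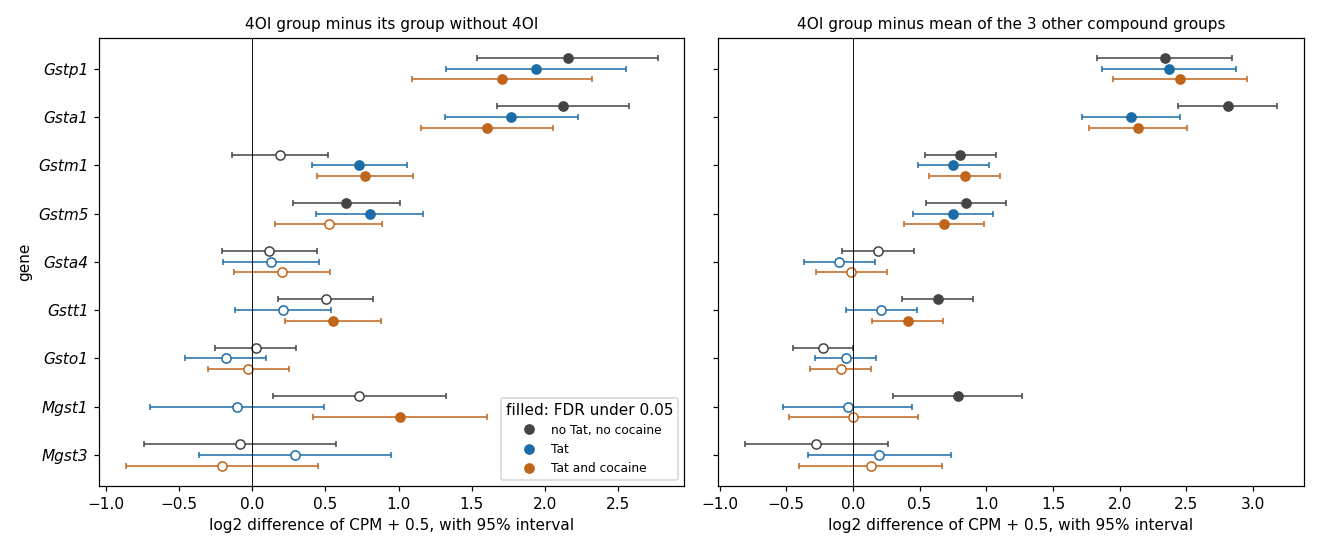
Log2 differences with 95% intervals of the 9 genes for 4OI against the group without it (left) and against the mean of the 3 other compounds in the same setting (right). Colours mark the setting and filled points FDR under 0.05. Gstp1 and Gsta1 lie between 1.60 and 2.81 in all 6 comparisons.

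Pairs of members were compared over the 16 group means, which share their cultures and scaling, as a description. Gstp1 and Gsta1 had r = 0.94, and 0.49 over the 13 groups without 4OI. The mu class genes Gstm1 and Gstm5 had r = 0.83, and 0.78 without the 4OI groups. Mgst1 and Mgst3 ran against each other (r = -0.85, and -0.87 without 4OI). Over all genes tested, the pattern of Gstp1 was most like those of Cat (catalase, r = 0.98), Blvrb (biliverdin reductase B, 0.98) and Ddit4l2 (0.97). Gsta1 was most like Trim16 (0.97), Cpt1a (0.96) and Slc48a1 (0.95), the last a haem transporter. For Gstm5 the closest genes were Fbxo2 (0.99), Nadk2 (0.98) and Klhl26 (0.97), and those close to Gstm1 included Col4a5 (0.97) and Mmp15 (0.95). Mgst1 went with Xrcc5 (0.97), Ice2 (0.96) and Sf3b3 (0.96). Mgst3 was closest to Vsnl1, a neuronal calcium sensor (0.99), Actr3b (0.98) and Fabp3 (0.98). Gsto1 was closest to Ube2s (0.92), its chromosomal neighbour Gsto2 (0.91) and Swi5 (0.90). Gstt1 was closest to Mir1306, Atpaf2 and Odc1 (0.92 to 0.93), and Gsta4 to Pdgfc, AABR07066180.1 and Pgm1 (0.86 to 0.88).

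Of 26 other glutathione transferase genes and relatives on a list, 18 were tested. With Tat 5 rose and 5 fell, where 14.6% of all genes rose and 6.7% fell, and with Tat-Cocaine 5 rose and 4 fell (8.63% and 6.3% of all genes). The largest rise was that of Ptges, the inducible prostaglandin E synthase, from a mean of 0.571 CPM in Control to 43.3 CPM with Tat (log2 5.37, FDR 8.43e-09). Gstz1, a zeta class enzyme of tyrosine breakdown, rose by 0.85 and Mgst2 by 2.25 on the log2 scale, while Ltc4s, the leukotriene C4 synthase, fell by 2.26 and Gstt3 by 0.73. 4OI alone raised 1 of the 18 and lowered 0 (2.47% and 0.686% of all genes). That gene was Gstt3, a neighbour of Gstt1, at a mean of 60.7 CPM against 26.7 CPM in Control (log2 1.20, FDR 0.00192). It was also higher in Tat-4OI than in Tat (1.28) and in cultures with all 3 agents than in Tat-Cocaine cultures (1.06, FDR 0.00457). In Tat-4OI cultures 4 of the 18 were lower than in Tat cultures (9.48% of all genes), namely Ptges (log2 -4.01), Hpgds, the haematopoietic prostaglandin D synthase (-2.30), Gstz1 (-0.74) and Ptges2 (-0.58). In Tat-Cocaine-4OI cultures 3 were lower (3.29% of all genes), namely Ptges (-3.30), Hpgds (-1.68) and Gstz1 (-0.65). Hpgds is a gene of microglia and other immune cells, and the summed level of 12 microglial markers was 1995 to 3617 CPM in Tat and 787 to 1879 CPM in Tat-4OI cultures. The part of microglial content in these differences was not tested.

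Genes that export glutathione conjugates or turn them into mercapturates were read as a second list, with 19 of 22 tested. With Tat 7 rose and 0 fell, against 14.6% and 6.7% of all genes. Among the 7 were the exporters Abcc1 (log2 0.50, FDR 0.00174) and Abcc4 (0.77, FDR 0.00298) and the peptidase Anpep (FDR 7.94e-05). With Tat-Cocaine 4 rose and 0 fell (8.63% and 6.3% of all genes). 4OI alone, with 2.47% of all genes up and 0.686% down, raised Abcc4 from a mean of 29.9 to 54.4 CPM (log2 0.90, FDR 0.00304) and Ggt6 (0.95), and lowered the dipeptidase Dpep1 (-0.94). In Tat-4OI against Tat 0 rose and 3 fell (6.1% and 9.48% of all genes), namely Dpep1 (-1.67), Anpep (-0.92) and Kyat3 (-0.68), the last a cysteine conjugate lyase. With cocaine added to both Abcc4 rose (0.63), and Abcc5 (-0.61), Dpep1 (-1.09), Anpep (-1.41) and Kyat3 (-0.78) were lower (4.07% of all genes up, 3.29% down).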

How the data were processed

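RNA-seq values of 48 rat culture libraries in 16 groups of 3 were read from the deposited table, and each library was assigned to its group by its label. The authors trimmed the reads (Trim Galore 0.4.5), aligned them with STAR 2.7.2 and counted uniquely mapped reads with featureCounts of Subread 1.5.3. The study's methods name the build Rnor_6.0 and the processing notes mRatBN7.2, so that no coordinates of the files were used. Each deposited signal value is CPM after TMM scaling in edgeR by the authors, and is not scaled to gene length, so levels were not compared between genes. From the steps between low values in each library, 85.0 to 87.3% of the values were whole reads within 0.02 read. Count models were for this reason not run. Columns of group means and of the authors' own comparisons (fold changes, p-values and FDR) were not used.

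Values were analysed as log2(CPM + 0.5) in limma 3.58.1 (R 4.3.3), with lmFit, a mean per group over all 48 libraries, and eBayes with a trend. Fold changes are on this scale and understate changes of low genes. Tests were two-sided and FDR values were adjusted over the 15890 genes tested (Benjamini-Hochberg), with 0.05 as the threshold. The smallest p of an exact permutation test of 3 against 3 libraries is 0.1. The steps were tested on simulated data. Of 16 comparisons of 2 groups planned, 5 had same-number libraries whose deviations correlated by over 0.1 in every pair (Tat-Cocaine, 4OI, Tazemetostat and Senicapoc against Control, and Tat-Amlexanox against Tat), and 27 of all 120 pairs of groups did. Alternatives were other pseudocounts, filters, scalings, thresholds and sets of libraries, a replicate block and the omission of each library. A further 8 comparisons were added after the values had been seen. Members, lists and tests were chosen with earlier results of these data known. Every member is named. Genes like a member are the 3 with the highest Pearson correlation over group means, of which 1 for Gstm1 is not reported here. Of the 2 further lists, genes called with 4OI and leading genes with Tat are named, the latter after their values were seen.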

Additional observations from a re-analysis of the deposited data

Results flagged for a closer look

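The effect of Amlexanox on Gstm1 differed between settings. It was -1.09 without Tat, -0.01 with Tat and -0.05 with Tat and cocaine on the log2 scale. The difference to the setting without Tat was 1.09 with Tat (limma FDR 0.0152, where 1.84% of all genes passed) and 1.04 with Tat and cocaine (FDR 0.00833, where 9.32% passed). Gstm1 values were 267.2, 284.2 and 136.3 CPM with Amlexanox alone, and 239.5, 289.9 and 256.5 CPM in Tat-Amlexanox cultures. The 3 Amlexanox groups thus lay in one range apart from Amlexanox replicate 3, while Control cultures were above Tat cultures. Without Amlexanox replicate 3 the differences were 0.75 (FDR 0.0804) and 0.71 (FDR 0.053). The former was also lost without Tat replicate 2 (1.04, FDR 0.0563) or Control replicate 3 (1.07, FDR 0.0638). These comparisons were added after the values had been seen.

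For Mgst1 the effect of Amlexanox was 1.26 higher on the log2 scale with Tat and cocaine than without (FDR 0.0482). The levels were 70.7, 71.3 and 36.2 CPM with Amlexanox alone and 250.7, 246.4 and 199.4 CPM in Tat-Cocaine-Amlexanox cultures. Of the 12 libraries concerned, the omission of 8 ended the call. These were Control replicates 2 (1.27) and 3 (1.24), Tat-Cocaine replicates 1 (0.96) and 2 (1.10), Amlexanox replicate 3 (0.94, FDR 0.221) and Tat-Cocaine-Amlexanox replicates 1 (1.20), 2 (1.22) and 3 (1.37). Without Tat-Cocaine replicate 3, which had the highest Mgst1 of its group, it was 1.73.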

How the results depend on the processing

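Of 37 calls of a family member, alternatives gave 699 values, of which 640 stayed past the threshold with the same sign, 59 fell short of it and 0 changed sign. Of 152 differences that had not passed, 13 passed under an alternative, 5 of them with the replicate block. With the libraries of the compared groups alone the count of members called fell from 5 to 1 in Tat-Cocaine-4OI against Tat-Cocaine (Gsta1 stayed, and Gstp1, Gstm1, Gstt1 and Mgst1 had FDR 0.0717, 0.0605, 0.205 and 0.359), from 2 to 1 in Tat-Cocaine against Control and from 3 to 0 for Amlexanox over its 3 settings. The first count was 3, without Gstt1 and Mgst1, with the 21 libraries of the 7 groups without the other compounds, and 3 at FDR under 0.01, where Tazemetostat went from 2 to 1. With 1 library left out at a time the counts ranged from 3 to 5 in Tat-Cocaine-4OI against Tat-Cocaine, from 1 to 5 for Amlexanox, from 0 to 4 for Tazemetostat and from 0 to 2 for Senicapoc. The highest counts of the last 3 came without Tat-Cocaine replicate 3, the lowest of Amlexanox without Amlexanox replicate 3 or Control replicate 2, and the lowest of Tazemetostat without Tat-Cocaine replicate 1 or Tat-Cocaine-Tazemetostat replicate 2. Leaving out both Cocaine replicate 3 and Amlexanox replicate 3 gave 1 for Amlexanox. The replicate block raised the count of Amlexanox from 3 to 6 (Gstm5 alone, Gsta4 with Tat and with Tat and cocaine). It also brought Gstm5 in Tat-Cocaine-4OI against Tat-Cocaine (FDR 0.0346) and Mgst3 in Tat-Cocaine-Tazemetostat against Tat-Cocaine (FDR 0.036) past the threshold, and ended 0 calls. The rise of Gstm5 with 4OI alone was lost with no filter (FDR 0.0587), quantile normalization (0.0782), median ratio rescaling (0.0576), the 2 groups alone (0.137) and the 21 libraries (0.124). Quantile normalization moved the share of upward calls over all genes from 68.5 to 54.6% in Tat against Control and from 39.2 to 49.98% in Tat-4OI against Tat. The causes were not tested. At the lowest level, that of Gstt1, a value rested on 94 reads or more.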
